A study of Bos taurus with 90 samples.

Results

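The liver expression of 4 genes of nuclear factor kappa B (NF-kB) signalling was examined in Charolais (CH) and Holstein-Friesian (HF) steers. The genes were TNFAIP3 (ENSBTAG00000000436), NFKBIA (ENSBTAG00000016683), JUN (ENSBTAG00000004037) and IL1A (ENSBTAG00000010349). They are 4 of the 24616 genes counted, and they were chosen on the difference between low and high residual feed intake (RFI) in CH steers during the first high-concentrate phase. That difference is therefore given below as a description, with no test. All 4 genes passed the filter on low counts in every main fit.

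NF-kB is a transcription factor that cytokine and pattern-recognition receptors switch on in hepatocytes and in the macrophages of the liver. In resting cells IkBα, the product of NFKBIA, holds it in the cytoplasm. TNFAIP3 encodes A20, a ubiquitin-editing enzyme that shuts off signalling between the receptors and NF-kB. Both genes are themselves induced by NF-kB and so form negative feedback loops. JUN encodes c-Jun, a subunit of the AP-1 transcription factor, which the same receptors activate through the JUN kinases. IL1A encodes interleukin-1α, a cytokine that activates NF-kB through the interleukin-1 receptor and is also a target of it.

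RFI is the feed an animal eats beyond the amount predicted from its size and growth, so that a low RFI steer is the more efficient one. Steers were ranked for RFI within breed in each of 3 dietary phases, high concentrate (H1), zero-grazed grass (ZG) and high concentrate again (H2). A liver biopsy was taken in each phase. The high-concentrate ration was based on rolled barley in both H1 and H2. Grass silage was fed between H1 and ZG, and the steers grazed between ZG and H2, when no biopsies were taken. The phases followed one another in time, so diet, age and season cannot be told apart. For CH there were 9 low and 11 high RFI libraries in H1, 3 and 3 in ZG, and 9 and 8 in H2. For HF there were 7 low and 9 high RFI libraries in H1, 10 and 8 in ZG, and 5 and 8 in H2. The 90 libraries came from 74 animals by breed and steer number, of which 14 had libraries in more than 1 phase. Steer 1797 was labelled CH in H1 and HF in H2 and was counted as a different animal in each.

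The reads assigned to genes ranged from 9097695 to 63621304 per library (median 18858293). The median library held 132.5 reads of TNFAIP3, 746 of NFKBIA and 236.5 of JUN, but 12.5 of IL1A. A count of 12 has an exact 95% Poisson interval of 6.20 to 20.96, which covers counting error only. Counting error came to 27.5% of the variance between steers of a group for IL1A, 13.9% for TNFAIP3, 6.35% for JUN and 2.19% for NFKBIA. The liver markers fixed for this work could not be matched to identifiers, so the labelled tissue was not checked. In bulk tissue, fewer cells of a type and less RNA per cell cannot be told apart.

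Levels are given as CPM, the reads of a gene relative to the TMM-scaled total of its library, which is not corrected for gene length, so the genes are not compared with one another. TNFAIP3 ranged from 3.86 to 13.4 CPM over the 90 libraries with a median of 7.33. NFKBIA ranged from 20.5 to 75.8 with a median of 39.6, JUN from 4.85 to 26.1 with a median of 14.02, and IL1A from 0.204 to 2.16 with a median of 0.597. Low RFI steers of CH in H1 had the highest mean of the 12 groups for each gene, which is the group the choice of the genes favoured. The lowest mean of TNFAIP3 was that of high RFI CH steers in H1. For JUN and NFKBIA it was that of low RFI CH steers in ZG, and for IL1A that of high RFI CH steers in ZG. Neighbours in the order of the 12 means mostly differed by less than their spread. A gap larger than the smaller SD of the pair occurred once in 11 steps for TNFAIP3, between low (9.74 ± 2.79, SD, n = 7) and high RFI HF steers in H1 (8.05 ± 1.51, SD, n = 9), and 0 times for the other genes.

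Over both RFI groups, the spread of the 6 breed and phase means was small. The highest mean exceeded the lowest 1.57-fold for JUN, 1.51-fold for IL1A, 1.33-fold for TNFAIP3 and 1.21-fold for NFKBIA. For JUN the largest step, from CH in H1 (16.8 ± 3.50, SD, n = 20) to HF in H2 (13.1 ± 4.01, SD, n = 13), was the only step of 5 that exceeded the smaller SD of its pair. That step separated the H1 means of both breeds from the ZG and H2 means. The other 3 genes had no such step.

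**Figure D1:**
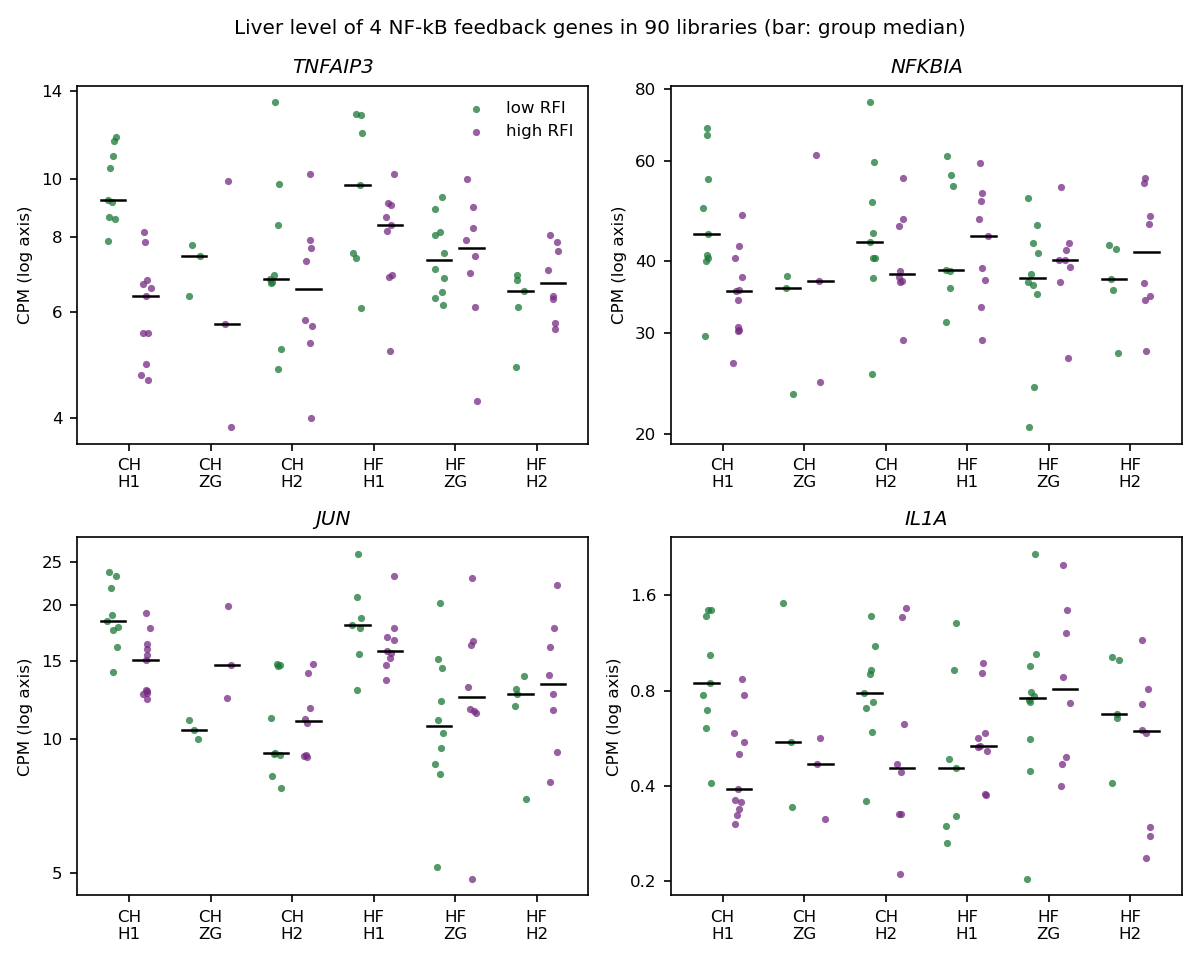
CPM on a log axis of TNFAIP3, NFKBIA, JUN and IL1A in each of 90 libraries, by breed, phase and RFI group, with a bar at each group's median. JUN sits higher in H1 than in ZG and H2 in both breeds (medians 16.2, 11.7 and 10.9 CPM in CH and 16.8, 11.6 and 12.7 CPM in HF), whereas low and high RFI libraries overlap in most panels.

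In the comparison the genes were chosen on, TNFAIP3 in CH during H1 ranged from 7.87 to 11.7 CPM (median 9.20) in the 9 low RFI steers and from 4.61 to 8.16 (median 6.39) in the 11 high RFI steers. Of the low RFI libraries, 8 lay above every high RFI library. NFKBIA ranged from 29.6 to 68.3 CPM (median 44.7) in low and from 26.6 to 48.3 (median 35.5) in high RFI steers, with 4 low RFI libraries above every high one. The low and high RFI libraries thus overlapped for both inhibitors. JUN ranged from 14.2 to 23.8 CPM (median 18.5) in low and from 12.3 to 19.2 (median 15.1) in high RFI steers, with 3 low libraries above every high one. IL1A ranged from 0.408 to 1.44 CPM (median 0.844) in low and from 0.302 to 0.869 (median 0.391) in high RFI steers, with 4 low libraries above every high one. In this comparison 0.0155% of the 12920 genes tested had an adjusted p under 0.1, and nothing is read from it here.

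In the 5 other breed and phase comparisons no member was called. The tests were edgeR's quasi-likelihood test in each breed and phase alone, called at a Benjamini-Hochberg adjusted p under 0.1 over all genes tested. The background was as low, since edgeR called 0% of the genes in HF in H1, CH in ZG, HF in ZG, CH in H2 and HF in H2 alike. At an unadjusted p under 0.05 there were 863, 1755, 261, 355 and 435 genes in that order, of which 1 was a member, JUN in CH in ZG. DESeq2 called 23, 167, 2, 3 and 3 genes and none of the members.

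The interval of most of these differences was wide. In HF in H1, TNFAIP3 ranged from 6.10 to 12.8 CPM (median 9.77) in 7 low and from 5.17 to 10.2 (median 8.38) in 9 high RFI steers, with 3 low RFI libraries above every high one. The fitted log2 difference, low minus high, was 0.29 ± 0.17 (SE), with a 95% interval of -0.03 to 0.62 and an adjusted p of 0.77. In CH in H2, TNFAIP3 ranged from 4.82 to 13.4 CPM (median 6.81) in 9 low and from 3.995 to 10.2 (median 6.55) in 8 high RFI steers, a log2 difference of 0.19 ± 0.21 (SE, adjusted p = 0.998). In HF in ZG and H2 the log2 differences were -0.01 ± 0.15 and -0.13 ± 0.14 (SE), with 95% intervals of -0.31 to 0.28 and -0.40 to 0.15.

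CH in ZG had 3 steers per RFI group, so every value can be given. TNFAIP3 was 6.36, 7.45 and 7.75 CPM in low and 3.86, 5.73 and 9.92 CPM in high RFI steers, and the groups overlapped. JUN was 9.98, 10.5 and 11.1 CPM in low and 12.4, 14.7 and 20.0 CPM in high RFI steers. Every low RFI library of JUN thus lay below every high one, the opposite side from H1, and 14.4% of the 13025 genes tested showed the same order. The fitted log2 difference was -0.56 ± 0.22 (SE, edgeR adjusted p = 0.365), and -0.35 without the high RFI library of steer 437. NFKBIA was 23.5, 35.9 and 37.7 CPM in low and 24.7, 37.0 and 61.4 CPM in high RFI steers. IL1A was 0.344, 0.550 and 1.51 CPM in low and 0.314, 0.468 and 0.565 CPM in high RFI steers, so that a single low RFI library, of steer 788, stood above the rest. The log2 difference of 0.85 ± 0.60 (SE) was 0.0222 without it. Leaving out the high RFI library of steer 307 turned the TNFAIP3 difference of 0.16 to -0.122, and leaving out that of steer 437 turned the NFKBIA difference of -0.32 to 0.0824. The acute phase genes HP, LBP and SERPINA3 had log2 differences of 4.90 ± 1.57, 2.07 ± 0.53 and 1.71 ± 0.53 (SE) in the same 6 libraries. They were not called by edgeR (adjusted p = 0.365 each) and were called by DESeq2 (adjusted p = 0.0806, 0.0181 and 0.0761), and their part in the values of the members was not tested.

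HF in H2 had 5 low RFI steers. Their TNFAIP3 was 4.85, 6.11, 6.49, 6.78 and 6.92 CPM, against 5.62 to 8.05 (median 6.71) in 8 high RFI steers, 4 of which lay above every low one. Their JUN was 7.34, 11.8, 12.6, 12.9 and 13.8 CPM, against 7.99 to 22.2 (median 13.3). Their NFKBIA was 27.7, 35.7, 37.3, 42.1 and 42.7 CPM, against 27.9 to 55.8 (median 41.6). For each of these 3 genes 4 high RFI libraries lay above every low RFI library. Their IL1A was 0.409, 0.656, 0.673, 0.998 and 1.02 CPM, within the 0.237 to 1.16 (median 0.594) of the high RFI steers.

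A single RFI effect was also fitted over the 70 libraries outside CH in H1, with breed and phase as covariates. The log2 difference, low minus high, was 0.09 ± 0.08 (SE) for TNFAIP3, with a 95% interval of -0.07 to 0.25. It was -0.05 ± 0.09 for NFKBIA, with an interval of -0.22 to 0.12, and -0.14 ± 0.10 for JUN, with an interval of -0.33 to 0.05. For IL1A it was 0.15 ± 0.18, with an interval of -0.20 to 0.51. All 4 edgeR adjusted p-values were 0.999. Of 13807 genes, 0% were called, with 501 at an unadjusted p under 0.05, and DESeq2 called 0. In the libraries the genes were chosen on, the fitted differences were 0.67 ± 0.11 (SE) for TNFAIP3, 0.45 ± 0.13 for NFKBIA, 0.38 ± 0.10 for JUN and 1.00 ± 0.25 for IL1A, given with no test.

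**Figure D2:**
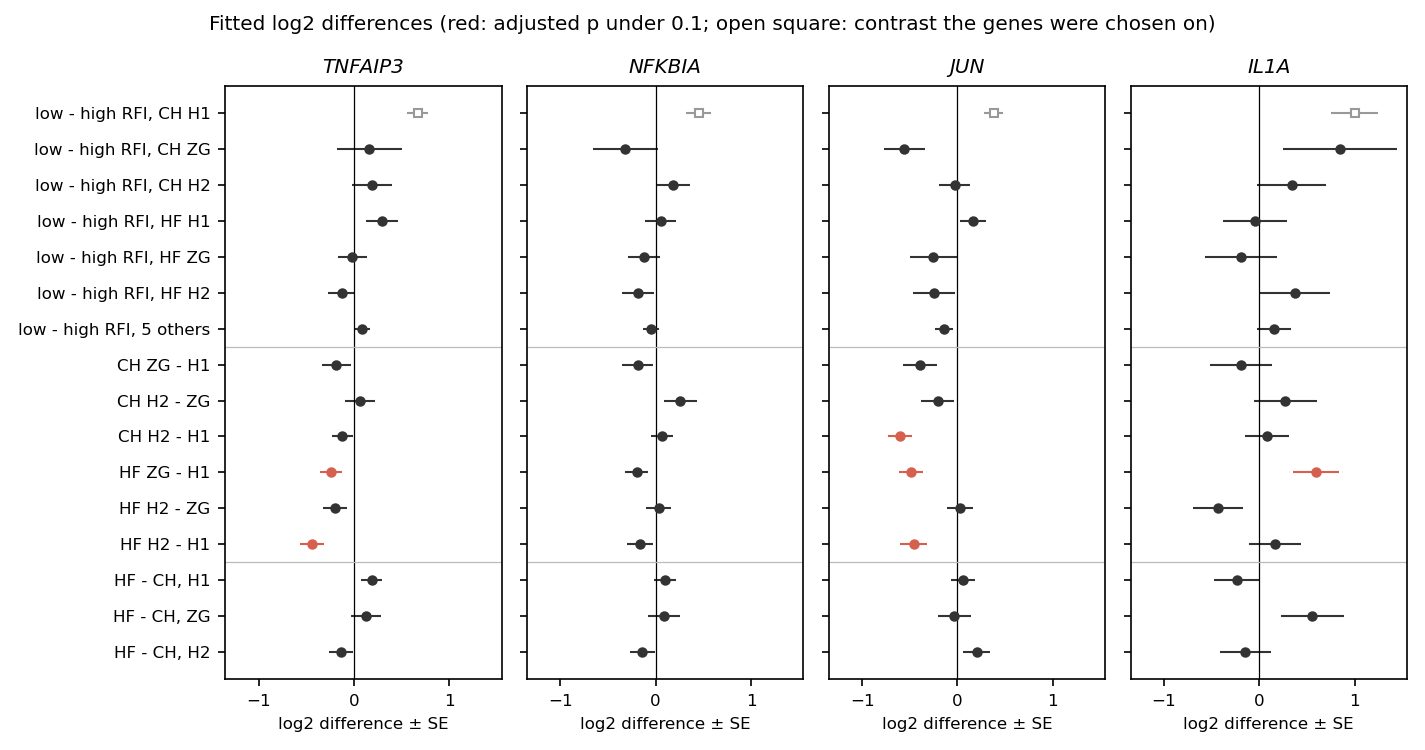
Fitted log2 difference with its SE (horizontal bars) for each gene and comparison, with differences called at an adjusted p under 0.1 in red and the comparison the genes were chosen on as an open grey square. The called differences lie in the phase comparisons, with JUN lower after H1 in both breeds, whereas the 5 other RFI comparisons and the breed comparisons hold none.

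The called differences of these genes lay between phases. JUN was lower in H2 than in H1 in both breeds, and TNFAIP3 was lower in H2 than in H1 in HF. IL1A was higher in ZG than in H1 in HF, a call that was lost without 2 libraries. The phase comparisons came from 1 edgeR fit of the 12 groups over all 90 libraries, averaged over RFI groups. Many genes moved with phase, so a member's call is read against that background. In CH, 17.8% of 13945 genes were called between H1 and ZG, 2.82% between ZG and H2, and 66.6% between H1 and H2. In HF these shares were 58%, 7.24% and 61.9%. The members called numbered 0, 0 and 1 of 4 in CH and 3, 0 and 2 of 4 in HF. In CH from H1 to H2 the members' share was below the background, and in HF their shares were near it, so the calls do not set the members apart from other genes. The H1 libraries of CH, on which the genes were chosen, enter the CH comparisons with low and high RFI groups weighted equally.

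JUN fell after H1 in both breeds. In CH, JUN ranged from 12.3 to 23.8 CPM (median 16.2, n = 20) in H1, from 9.98 to 20.0 (median 11.7, n = 6) in ZG and from 7.75 to 14.8 (median 10.9, n = 17) in H2. All 20 H1 libraries lay above the H2 median, 14 of them lay above every H2 library, and 12 of the 17 H2 libraries lay below every H1 library. JUN was 1.52-fold lower in H2 than in H1 in CH, a log2 difference of -0.60 ± 0.12 (SE, edgeR adjusted p = 3.84e-05). The lower level in ZG than in H1, -0.39 ± 0.18 (SE), was not called (adjusted p = 0.129). With the steer as a replicate block this last difference was -0.38 and was called (limma adjusted p = 0.0826), as it was by DESeq2 (-0.42, adjusted p = 0.0812) and without the high RFI ZG library of steer 437 (-0.50, adjusted p = 0.0996). Sample quality weights in limma-voom called it too (-0.42, adjusted p = 0.0112).

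In HF, JUN ranged from 12.9 to 26.1 CPM (median 16.8, n = 16) in H1, from 4.85 to 23.0 (median 11.6, n = 18) in ZG and from 7.34 to 22.2 (median 12.7, n = 13) in H2. All 16 H1 libraries lay above the median of each later phase. Of the 18 ZG libraries, 11 lay below every H1 library. The log2 difference was -0.49 ± 0.13 (SE) from H1 to ZG (adjusted p = 0.00133) and -0.46 ± 0.14 from H1 to H2 (adjusted p = 0.00557), and 0.03 ± 0.14 from ZG to H2 (adjusted p = 0.939). JUN thus differed between the 2 phases on the same ration in both breeds. The share of reads taken by the 100 most abundant genes also moved with phase, from a median of 52.9% in H1 to 52.8% in ZG and 58.9% in H2 in CH, and from 52.1% to 56.1% and 55.5% in HF. Its part in the change of JUN was not tested.

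TNFAIP3 fell after H1 in HF. There it ranged from 5.17 to 12.8 CPM (median 8.50) in H1, from 4.27 to 10.0 (median 7.49) in ZG and from 4.85 to 8.05 (median 6.49) in H2, and 10 of the 16 H1 libraries lay above every H2 library. The log2 difference was -0.24 ± 0.11 (SE) from H1 to ZG (adjusted p = 0.0671) and -0.44 ± 0.13 from H1 to H2 (adjusted p = 0.00283). The first of these calls was lost with sample quality weights in limma-voom (-0.14, adjusted p = 0.316). In CH, TNFAIP3 had medians of 7.86, 6.91 and 6.81 CPM in H1, ZG and H2, and no phase difference was called by edgeR. With sample quality weights the difference from H1 to ZG in CH was called (-0.33, limma adjusted p = 0.0522). The CH log2 difference from H1 to H2 was -0.12 ± 0.11 (SE, adjusted p = 0.340), with a 95% interval of -0.34 to 0.09.

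NFKBIA was not called by edgeR between any phases. Its medians in H1, ZG and H2 were 40.3, 36.4 and 40.5 CPM in CH and 41.6, 39.7 and 37.3 CPM in HF, and the libraries of the phases overlapped over most of their range. The log2 difference from H1 to ZG was -0.19 ± 0.17 (SE) in CH and -0.20 ± 0.12 in HF, with adjusted p-values of 0.436 and 0.169. The CH value ran from -0.39 without the high RFI ZG library of steer 437 to -0.0576 without that of steer 307. With sample quality weights NFKBIA was called from H1 to ZG in CH (-0.37, limma adjusted p = 0.0579) and from ZG to H2 in CH (0.38, adjusted p = 0.0723), and with at least 10 reads in every library from H1 to ZG in HF (-0.26, edgeR adjusted p = 0.0692).

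IL1A went the other way from JUN in HF. It ranged from 0.263 to 1.30 CPM (median 0.523) in H1, from 0.204 to 2.16 (median 0.756) in ZG and from 0.237 to 1.16 (median 0.656) in H2, and was called higher in ZG than in H1 (0.60 ± 0.24, SE, adjusted p = 0.0339). Of the 16 H1 libraries, 4 lay above the ZG median. The call was lost without 2 ZG libraries, of steers 2069 and 5635. These had the lowest JUN of the phase at 4.85 and 5.15 CPM and the highest IL1A at 1.99 and 2.16 CPM. Leaving them out therefore lowers the IL1A difference by construction. Without them the difference was 0.37 (adjusted p = 0.215), and it was also not called with sample quality weights (0.41, adjusted p = 0.113). The fall of JUN was -0.38 without them (adjusted p = 0.00620). In these 2 libraries the 100 most abundant genes took 63.5% and 64.4% of reads, against 50.7% to 64.4% over all HF libraries in ZG. In CH, IL1A had medians of 0.598, 0.509 and 0.704 CPM in H1, ZG and H2, with no call.

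The 14 animals sampled in more than 1 phase allowed the same change to be followed within a steer. Of the steers followed, 4 from H1 to H2 and 3 from H1 to ZG were CH. Their H1 libraries were among those the genes were chosen on. For each gene, the exact p-values over both breeds from H1 are therefore descriptions and no independent test. From H1 to H2, TNFAIP3 fell in 8 of 8 steers, with a ratio of H2 to H1 of 0.551 to 0.893 and a mean log2 ratio of -0.50 ± 0.29 (SD, n = 8, two-sided exact permutation p = 0.00781). In steer 5632 of HF it went from 12.8 to 8.04 and 7.05 CPM over the 3 phases, and in steer 307 of CH from 7.85 to 3.86 and 6.91 CPM. From H1 to ZG it fell in 6 of 6 steers, with a mean log2 ratio of -0.55 ± 0.41 (SD, n = 6, exact p = 0.0312). Of the 3 CH steers among them, 2 were in the low RFI group in H1, where the choice of the genes favoured high values. A ratio below 1 in every steer was also found for 15.4% of 13945 genes from H1 to H2 and for 14.4% from H1 to ZG.

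JUN fell within steers too, in 7 of 8 from H1 to H2 and in 6 of 6 from H1 to ZG. The mean log2 ratios were -0.67 ± 0.48 (SD, n = 8, exact permutation p = 0.0156) and -0.67 ± 0.58 (SD, n = 6, exact permutation p = 0.0312). NFKBIA also fell in 6 of 6 steers from H1 to ZG (-0.55 ± 0.35, SD, n = 6, exact p = 0.0312) and was lower in 6 of 8 from H1 to H2 (-0.19 ± 0.31, SD, n = 8, exact p = 0.148). IL1A was lower in 5 of 6 and 4 of 8 steers (exact p = 0.531 and 0.523). From ZG to H2, with 4 steers, TNFAIP3 and JUN were lower in 3, NFKBIA in 2 and IL1A in 1, and 8.45% of genes were lower in all 4. These are 12 comparisons, and with 6, 8 and 4 steers the smallest exact p is 0.0312, 0.00781 and 0.125. Of the 8 steers sampled in H1 and H2, 4 had changed RFI group.

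The H1 libraries of the CH steers were among those the genes were chosen on, and 2 of the 3 CH steers followed from H1 to ZG were in the low RFI group in H1. In the HF steers alone, an alternative chosen after the data were seen, TNFAIP3 was lower in 3 of 3 from H1 to ZG (-0.33 ± 0.33, SD, n = 3, exact p = 0.25) and in 4 of 4 from H1 to H2 (-0.67 ± 0.13, SD, n = 4, exact p = 0.125). These are the smallest p that 3 and 4 steers can give, and the share of all genes lower in every HF steer was not computed. The counts of HF steers are therefore given as descriptions. NFKBIA was likewise lower in 3 of 3 and 4 of 4, and JUN in 3 of 3 and 3 of 4. IL1A was lower in 2 of 3 and 2 of 4, with a mean log2 ratio from H1 to ZG of 0.18 ± 1.39 (SD, n = 3). From H1 to ZG it rose in steer 2069, from 0.589 to 1.99 CPM. The ZG library of that steer is 1 of the 2 without which the higher IL1A of ZG was not called.

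**Figure D3:**
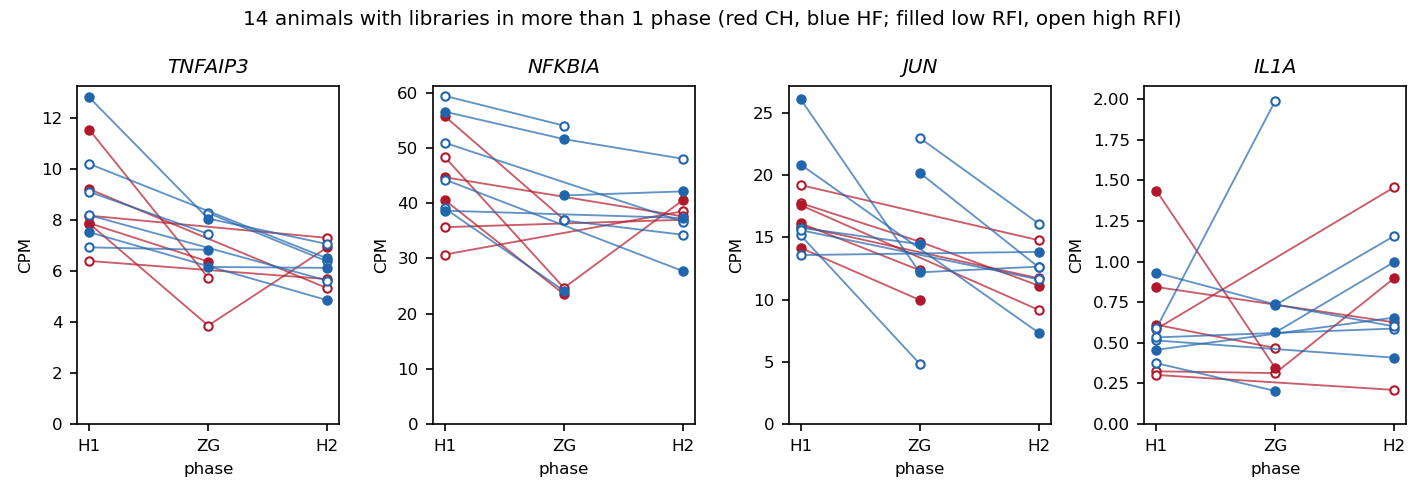
CPM of each gene in the 14 animals with libraries in more than 1 phase, with lines joining the libraries of an animal (red CH, blue HF, filled low RFI, open high RFI). TNFAIP3 is lower in H2 than in H1 in 8 of 8 steers and JUN in 7 of 8, whereas IL1A is lower in 4 of 8.

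Steers did not keep a strong rank of their own across phases. For the 18 pairs of libraries from 1 animal, the deviations from the group mean correlated with r = 0.265 for NFKBIA, 0.207 for JUN, 0.172 for IL1A and 0.087 for TNFAIP3. These are descriptions, since 2 animals gave 3 pairs each.

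Breed had no called effect on the 4 genes. Between HF and CH, 2.12% of 13945 genes were called in H1, 0.0645% in ZG and 0.81% in H2, and 0 of 4 members in each. The log2 difference, HF minus CH, ran from -0.13 ± 0.12 (SE, H2) to 0.19 ± 0.11 (H1) for TNFAIP3, from -0.14 ± 0.13 (H2) to 0.10 ± 0.12 (H1) for NFKBIA and from -0.03 ± 0.18 (ZG) to 0.20 ± 0.14 (H2) for JUN. For IL1A it ran from -0.23 ± 0.24 (H1) to 0.56 ± 0.33 (ZG). At an unadjusted p under 0.05 the 3 phases had 1445, 886 and 1097 genes and none of the members, and DESeq2 called 353, 14 and 143 genes and none of the members.

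The phase changes of the breeds were also compared with each other. The fall of TNFAIP3 from H1 to H2 was called in HF but not in CH, and the difference between the breeds, -0.32 ± 0.17 (SE), was not called (edgeR adjusted p = 1.00 for 13945 genes). The difference for IL1A from H1 to ZG was 0.79 ± 0.41 (SE), and that for JUN from H1 to H2 was 0.14 ± 0.19. In the 3 breed by phase tests edgeR called 0% of genes from H1 to ZG, 0% from ZG to H2 and 0% from H1 to H2. At an unadjusted p under 0.05 there were 418, 761 and 330 genes and none of the members. DESeq2 called 1, 40 and 0 genes, again with none of the members.

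How the genes varied together was measured within groups, in 74 libraries, 1 per animal, after subtracting the mean log2 CPM of each of the 12 groups. The group means, on which the genes were chosen, are removed by this. The 2 inhibitors of NF-kB varied together. TNFAIP3 and NFKBIA had r = 0.669 and Spearman rho = 0.656 (permutation p = 1e-05 for each, the smallest that 100000 permutations within groups can give), and lay on the same side of their group means in 58 of 74 libraries. Of the 13805 other genes, NFKBIA had the highest r with TNFAIP3 (limma adjusted p = 1.82e-05), and TNFAIP3 the second highest with NFKBIA. In CH alone these ranks were 2 and 1 (limma adjusted p = 0.00550 and 0.0131). In HF alone the ranks were 20 and 4 (limma adjusted p = 0.0970 and 0.9997), so there TNFAIP3 was not called with NFKBIA. The correlation was 0.681 without the 2 libraries farthest from the median of TNFAIP3.

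The same pair was positively correlated in each breed and phase. Across the 6, r was 0.287 in CH in H1 (n = 14), 0.952 in CH in ZG (n = 6), 0.868 in CH in H2 (n = 16), 0.887 in HF in H1 (n = 10), 0.330 in HF in ZG (n = 18) and 0.617 in HF in H2 (n = 10). The correlation was thus weakest in the group the genes were chosen on and in HF in ZG.

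**Figure D4:**
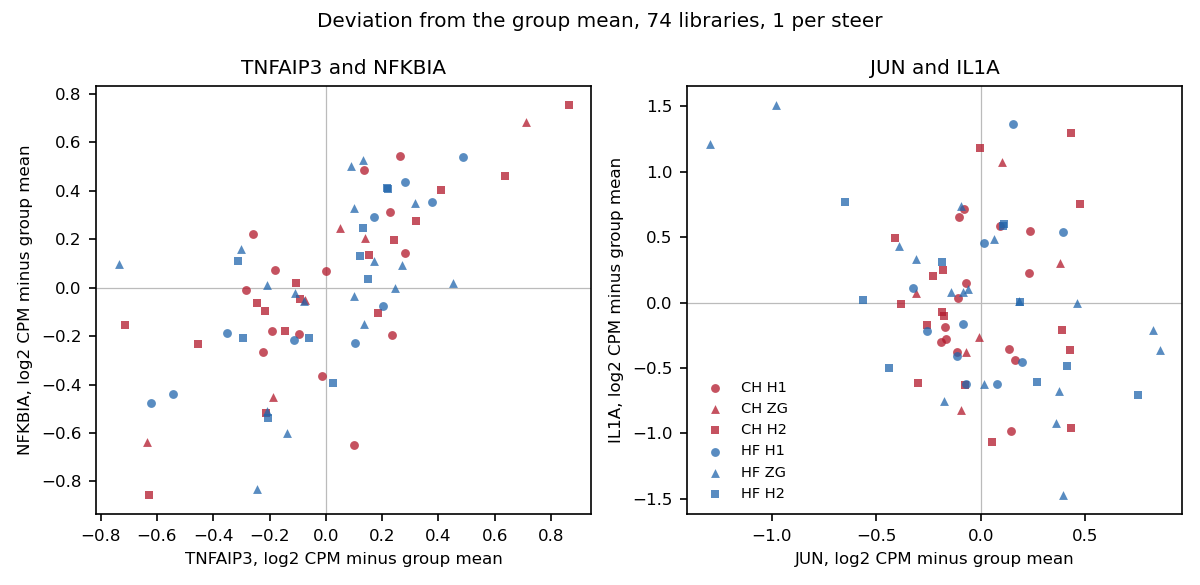
Deviation of log2 CPM from the group mean in 74 libraries, 1 per animal, for TNFAIP3 against NFKBIA (left) and JUN against IL1A (right), with CH in red and HF in blue and a symbol for each phase. TNFAIP3 and NFKBIA rise together (r = 0.669), and the r of JUN and IL1A of -0.310 becomes -0.130 without the 2 HF libraries of ZG at the upper left.

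JUN was not called with either inhibitor over all 74 libraries. It had r = 0.185 with TNFAIP3 (rho = 0.217, permutation p = 0.133 and 0.0878) and r = -0.004 with NFKBIA (rho = 0.043, permutation p = 0.972 and 0.734). Within breed and phase its r with TNFAIP3 ran from -0.149 in CH in H1 to 0.774 in HF in H2, and was 0.727 in CH in ZG (n = 6). Its r with NFKBIA ran from -0.494 in CH in H1 to 0.681 in CH in ZG, and was 0.526 in HF in H2. IL1A had r = 0.348 with NFKBIA (rho = 0.351, permutation p = 0.00406 and 0.00453) and r = 0.280 with TNFAIP3 (rho = 0.264, permutation p = 0.0235 and 0.0333). Within CH and HF, on the same values, its r was 0.454 and 0.252 with NFKBIA and 0.440 and 0.118 with TNFAIP3. The difference between the breeds in these r was not tested. In the fits across all genes, IL1A was not among the genes called with TNFAIP3 (limma adjusted p = 0.305) or with NFKBIA (adjusted p = 0.708), whereas both were among the many called with IL1A (adjusted p = 0.0452 and 0.00985). Of the 13805 other genes, 28.9% had a higher r with IL1A than TNFAIP3 had, and 21.2% a higher r than NFKBIA had. With TNFAIP3 and NFKBIA, 4.63% and 0.558% of genes had a higher r than IL1A had. The pairs of members are 6 in all.

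JUN and IL1A were negatively correlated, with r = -0.310 (rho = -0.200, permutation p = 0.0167 and 0.112). Of the 13805 other genes, 73.9% had a higher r with IL1A than JUN had, and 74.6% a higher r with JUN than IL1A had. The pair thus did not stand apart from other genes. The 2 HF libraries of ZG named above were the lowest in JUN and the highest in IL1A of that phase. Leaving them out therefore weakens a negative r by construction. Without them r was -0.130 and rho -0.149 over 72 libraries (permutation p = 0.301 and 0.247). Within breeds, on the same values, r was 0.103 in CH (n = 36) and -0.522 in HF (n = 38), and within HF it was 0.339 in H1 (n = 10), -0.710 in ZG (n = 18) and -0.498 in H2 (n = 10). The value for HF in H2 holds neither of the 2 libraries left out. The difference between the breeds was not tested.

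The number of genes that varied with each member differed widely. At an adjusted p under 0.1 in limma, 0.558% of 13805 genes rose and 0.5% fell with TNFAIP3, 77 and 69 genes. With NFKBIA 0.101% rose and 0.029% fell, 14 and 4 genes. With JUN 33.3% rose and 32.4% fell, and with IL1A 33.5% rose and 31.2% fell. Most of the genes tested were thus called with JUN and with IL1A. The first principal component of the group-centred values held 31.7% of their variance and had r = 0.581 with JUN, -0.563 with IL1A, 0.062 with TNFAIP3 and -0.087 with NFKBIA. The share of reads in the 100 most abundant genes had r = -0.462 with JUN and 0.481 with IL1A, and 0.086 and 0.185 with TNFAIP3 and NFKBIA. The log2 of the reads per library had an r of at most 0.143 with each of the 4 genes. These correlations share libraries and scaling with the values themselves, and their part in the relations of JUN and IL1A was not tested.

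With the first principal component as a covariate, an alternative chosen after the data were seen, the genes called with JUN fell to 70 rising and 49 falling, and those with IL1A to 0. The r of JUN and IL1A was then 0.025, whereas that of TNFAIP3 and NFKBIA was 0.679. Without this covariate, the number of genes called also differed between the breeds, a difference that was not tested. In CH alone 183 genes were called with JUN and 2650 with IL1A, against 8839 and 8049 in HF alone, with 36 and 38 libraries. The HF libraries include the 2 of ZG named above. Without those 2, 6197 genes were called with JUN and 6718 with IL1A over 72 libraries, against 9074 and 8934 over all 74.

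**Figure D5:**
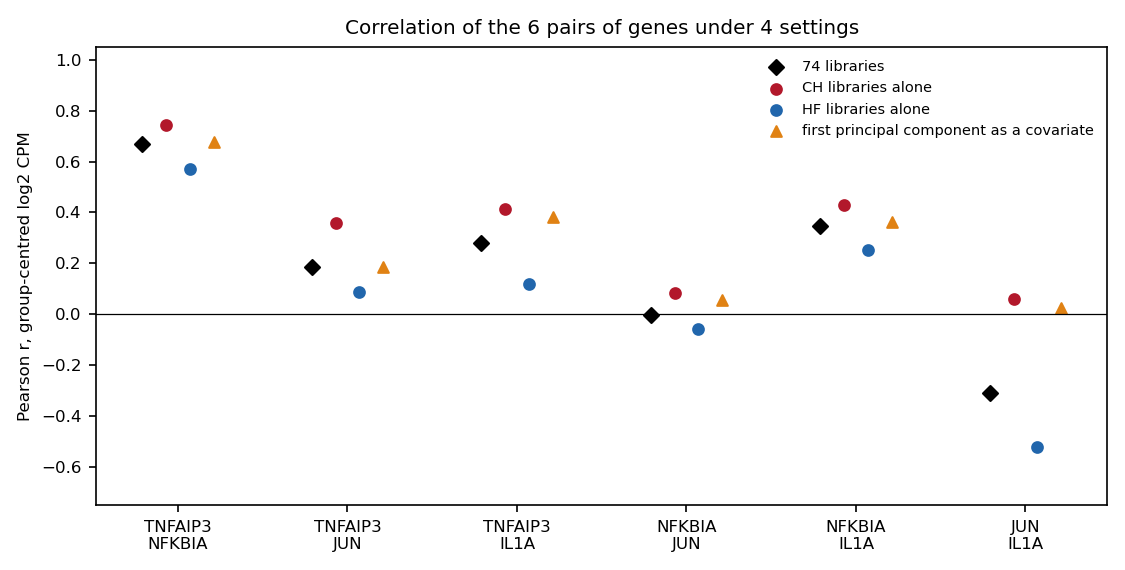
Pearson r of group-centred log2 CPM for the 6 pairs of genes, over all 74 libraries (diamonds), in CH and HF alone with CPM computed anew in each (red and blue circles) and with the first principal component of all genes as a covariate (orange triangles). TNFAIP3 and NFKBIA stay above 0.5 in each setting, whereas JUN and IL1A go from -0.521 in HF to 0.061 in CH.

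The genes most like each member were ranked by the same r over 74 libraries. For NFKBIA the highest was ERRFI1, an inhibitor of epidermal growth factor receptor signalling, at r = 0.695 (limma adjusted p = 1.34e-06), followed by TNFAIP3 and by RGS1, a regulator of G protein signalling in immune cells, at r = 0.649 (adjusted p = 2.67e-05). The lowest was MID1IP1, a regulator of fatty acid synthesis, at r = -0.579 (adjusted p = 0.00103). ERRFI1 ranked 4 for TNFAIP3, at r = 0.585 (adjusted p = 0.000834). For JUN the extremes were ENSBTAG00000037726 at r = 0.723 and ENSBTAG00000012740 at r = -0.663, and for IL1A ENSBTAG00000006786 at r = 0.647 and ENSBTAG00000019354 at r = -0.686, which carry no name in the sources used here.

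Few other genes of the pathway carried a name. Of 240 symbols in 22 lists, 12 matched an identifier, including the 4 members, and 0 of the 5 NF-kB subunits, the 3 subunits of the IkB kinase, the 14 receptors and the 24 further target genes did. With so few matched, no statement is made about a list. TOLLIP, an adaptor that restrains interleukin-1 receptor signalling, was the only other feedback gene matched of 14. It fell from H1 to H2 in CH (-1.34 ± 0.28, SE, adjusted p = 4.53e-05) and in HF (-1.39 ± 0.33, adjusted p = 0.000392), and from H1 to ZG in HF (-0.63 ± 0.29, adjusted p = 0.0576), as JUN did, in comparisons where 66.6%, 61.9% and 58% of all genes were called. Within groups TOLLIP had r = 0.537 with JUN and -0.534 with IL1A (limma adjusted p = 4.03e-05 and 5.72e-05), and 0.021 and -0.087 with TNFAIP3 and NFKBIA. Of all genes, 33.3% rose with JUN and 31.2% fell with IL1A.

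MAP2K6, a kinase upstream of the stress-activated p38 kinases, was the only 1 of 8 matched in the list of JUN kinases. Its level rose in H2. It rose from H1 to H2 in CH (0.60 ± 0.12, SE, adjusted p = 2.66e-05) and HF (0.58 ± 0.14, adjusted p = 0.000456) and from ZG to H2 in CH (0.80 ± 0.18, adjusted p = 0.0172) and HF (0.66 ± 0.14, adjusted p = 0.00135). In these comparisons 66.6%, 61.9%, 2.82% and 7.24% of all genes were called, in that order. Within groups the r of MAP2K6 with IL1A was -0.258 (limma adjusted p = 0.0628) and that with JUN 0.084 (adjusted p = 0.579). Of all genes, 31.2% fell with IL1A.

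MYC, a growth-promoting transcription factor and the only 1 of 25 immediate-early genes matched, varied with NFKBIA within groups (r = 0.488, limma adjusted p = 0.0390), as 1 of the 18 genes called with it. Its r was 0.298 with TNFAIP3, 0.141 with IL1A and 0.0046 with JUN, none of them called. It rose from H1 to H2 in CH (0.54 ± 0.20, SE, edgeR adjusted p = 0.0190), where 66.6% of all genes were called.

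Of the acute phase proteins, which the liver secretes in inflammation, 5 of 19 were matched. The fibrinogen chains FGG and FGA varied with IL1A at r = 0.511 and 0.448 (limma adjusted p = 0.000118 and 0.000845) and with JUN at r = -0.398 and -0.307 (adjusted p = 0.00283 and 0.0252). Of all genes, 33.5% rose with IL1A and 32.4% fell with JUN, so these calls do not set the 2 chains apart. With the first principal component as a covariate, 0 genes were called with IL1A. HP, LBP and SERPINA3, the other 3, had r between -0.081 and 0.173 with each of the 4 members, and none was called. FGG and FGA rose from H1 to H2 in CH (0.51 ± 0.16 and 0.34 ± 0.14, SE, adjusted p = 0.00375 and 0.0353) and from H1 to ZG in HF (0.40 ± 0.16 and 0.40 ± 0.15, adjusted p = 0.0375 and 0.0215). HP rose from H1 to H2 in CH (1.75 ± 0.89, adjusted p = 0.0827). Of all genes, 66.6% were called from H1 to H2 in CH and 58% from H1 to ZG in HF. By edgeR none of these 5 genes, TOLLIP, MAP2K6 or MYC was called in an RFI comparison outside CH in H1. DESeq2 called 6 of these 8 in CH in ZG. The 5 acute phase genes were higher in low RFI steers (adjusted p between 0.0181 and 0.0854). TOLLIP was lower in low RFI steers (-1.48 ± 0.45, SE, adjusted p = 0.0854). In the other comparisons outside CH in H1 DESeq2 called none of the 8, but it gave HP in HF in H2 no adjusted p. These genes carry a name here because the study listed them from the same libraries, so their calls are not independent evidence.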

How the data were processed

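The authors sequenced liver mRNA of the 90 steer samples (single-end reads of 50 bp), aligned it with STAR to UMD3.1 and deposited raw read counts for 24616 genes of Ensembl 87. The study reports more libraries sequenced than these 90, and the removal of outlying samples. The strand used in counting is not given in the sources used here, so reads of overlapping genes are as deposited.

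Groups came from the labels. The members and gene lists were chosen with earlier results of these data known. Counts were tested with edgeR 4.0.16 in R 4.3.3 (quasi-likelihood, robust, TMM, filterByExpr) and called at a Benjamini-Hochberg adjusted p under 0.1. Covariation was tested with limma 3.58.1 on log2 CPM (prior count 2) with group as covariate, and within-steer ratios with exact permutation tests in scipy 1.17.1 (Python 3.11.15). P-values of the fits measure the spread between libraries, and those of the within-steer ratios the spread between steers. The main edgeR fits over several phases treated the libraries of 1 animal as independent. Named genes were the 4 members, genes matched in the lists, and for each member those of the 5 genes with the highest and 2 with the lowest r that have a name, with 4 identifiers besides. Names came from the 328 identifiers that the study pairs with symbols. No sequence or position was used here.

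The labels give the steer of each library, which pairs libraries across phases. Over 13945 genes the deviations of 18 same-steer pairs had a median r of 0.248 (range -0.424 to 0.501). The alternatives were DESeq2 1.42.0, its size factors, 2 other filters, an adjusted p under 0.05, quality weights, a steer block, other sets of libraries and 1 fit of 12 groups. Fits were checked on simulated data.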

Additional observations from a re-analysis of the deposited data

Results flagged for a closer look

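Of 36 combinations of a gene and a group of 4 to 10 libraries, 2 held a library that stood far from the rest of its group, about what chance gives at 1 in 20. In high RFI HF steers of H1, steer 2064 had 23.3 CPM of JUN against 17.8 CPM for the next of 9 libraries. In low RFI HF steers of ZG, steer 5635 had 2.16 CPM of IL1A against 1.04 CPM for the next of 10 libraries. This library is 1 of the 2 without which the higher IL1A of ZG was not called.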

How the results depend on the processing

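Of 881 log2 differences of the 4 genes under the alternatives, 841 kept their direction and their side of the threshold, 28 changed sign, 8 became called and 4 lost their call. No reversed difference was called, and the number of members called differed from that reported in 6 of 218 values. From H1 to ZG in CH it was 1 with DESeq2, 1 with the replicate block, 3 with sample quality weights and 0 to 1 without a replicate, against 0. With quality weights it was 1 from ZG to H2 in CH, against 0, and 1 from H1 to ZG in HF, against 3. IL1A was not tested where 10 reads were required in every library. IL1A rests on few reads, and CH in ZG on 6 libraries. With at least 10 reads NFKBIA became called and IL1A dropped out from H1 to ZG in HF, which left the count at 3. An adjusted p under 0.05 dropped TNFAIP3 from H1 to ZG in HF. The choice of 3 of these alternatives was made after the data were seen, namely those without the 2 highest libraries, with the first principal component, and without the 2 HF libraries of ZG lowest in JUN.

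Counts of genes moved more. For RFI in CH in H1 they were 159 with DESeq2, 1 with at least 10 reads and 4 in the fit of 12 groups, against 2. Against 0, DESeq2 gave 23 in HF in H1, 167 in CH in ZG, 2 in HF in ZG, 3 in CH in H2 and 3 in HF in H2, and the fit of 12 groups gave 13 in HF in H1, 2 in HF in ZG and 5 in CH in H2. Without a replicate the count was 0 to 1 in CH in ZG, where the 1 came without steer 788, and 0 to 1 over the 70 libraries, where the 1 came without steer 437, and with no filter it was 3 over the 70.

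From H1 to ZG in CH the count of 2476 became 1124 at an adjusted p under 0.05, 1616 with no filter, 1535 with at least 10 reads, 3979 with the replicate block and 4836 with quality weights. Without a replicate it was 322 to 2985, the lowest without steer 788. From ZG to H2 in CH the count of 393 became 130 at 0.05, 660 with DESeq2, 260 with no filter and 4489 with quality weights, and 57 to 717 without a replicate, the lowest without steer 1831 and the highest without steer 788. From ZG to H2 in HF the count of 1010 became 509 at 0.05, 3128 with quality weights and 1870 without the 2 HF libraries of ZG, and 583 to 909 without a replicate, the lowest without steer 2220. For breed, the 295 in H1 became 130 at 0.05, 161 with at least 10 reads and 566 with quality weights. The 9 in ZG became 14 with DESeq2, 0 with at least 10 reads, 2 with the replicate block and 73 with quality weights, and 0 to 15 without a replicate, the lowest without steer 1816 and the highest without steer 437. The 113 in H2 became 40 with at least 10 reads and 273 with quality weights. DESeq2 called 1 and 40 genes for breed by phase from H1 to ZG and from ZG to H2. The cause of these shifts was not tested.

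Of the reversed differences, all uncalled, IL1A from H1 to H2 in CH became -0.0237 with the replicate block and -0.0734 with quality weights. JUN from ZG to H2 in HF became -0.0385 with quality weights and -0.0774 without the 2 HF libraries, and -0.0062 to 0.0908 without a replicate. Without a replicate, TNFAIP3 from ZG to H2 in CH was -0.0692 to 0.280, and for RFI in CH in ZG TNFAIP3 was -0.122 to 0.591 and NFKBIA -0.605 to 0.0824. For breed in ZG, JUN became 0.0179 with quality weights and 0.0757 without the 2 HF libraries. Without a replicate it was -0.106 to 0.0735, TNFAIP3 -0.0023 to 0.347 and NFKBIA -0.0418 to 0.294. For breed in H2, IL1A became 0.0067 with quality weights. For breed by phase from H1 to ZG, TNFAIP3 became 0.190 with quality weights and -0.190 to 0.159 without a replicate, and JUN 0.0252 without the 2 HF libraries and -0.167 to 0.0127 without a replicate. NFKBIA there became 0.0095 with DESeq2, 0.0096 with its size factors, 0.0077 with no filter, 0.0477 with the replicate block and 0.190 with quality weights, and -0.138 to 0.198 without a replicate. For breed by phase from H1 to H2, IL1A became -0.0337 without steer 1797.

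The genes called with TNFAIP3, 146 in all, became 70 at 0.05, 798 in all 90 libraries, 820 with the replicate block, 229 with DESeq2 size factors, 1250 with at least 10 reads, 29 in CH, 81 in HF, 69 without the 2 highest libraries, 1109 with the first principal component and 349 without the 2 HF libraries. Those called with NFKBIA, 18 in all, became 1 in HF, 6 without the 2 highest libraries and 32 with the first principal component. Those called with JUN became 183 in CH and 119 with the first principal component, and those called with IL1A became 2650 in CH and 0 with the first principal component. The r of TNFAIP3 and NFKBIA was 0.663 in all 90 libraries with the replicate block (limma adjusted p = 1.70e-07). The r of NFKBIA and JUN became 0.0308 in all 90 libraries with and without the replicate block, 0.0177 with DESeq2 size factors, 0.0709 with at least 10 reads, 0.0023 without steer 1797, 0.0817 in CH, 0.0570 with the first principal component and 0.141 without the 2 HF libraries. The r of JUN and IL1A became 0.0612 in CH, 0.0251 with the first principal component, and 0.0073, 0.408, 0.0665 and 0.339 within CH in H1, ZG and H2 and HF in H1.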
